A study of Mus musculus with 11 samples.

Results

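The genes described here are the heat shock chaperones, the chaperonin subunits and their close helpers in AML12 cells, a line of mouse hepatocytes. They were chosen by symbol, which takes in the HSP90, HSP70, HSP110 and small heat shock protein families, the J proteins of groups A, B and C, the chaperonin subunits, the BAG proteins 1 to 6 and the heat shock factors 1 and 2. Of the 24849 genes of the count table, 86 names matched and 71 had at least 10 counts in 3 or more of the 11 libraries. These 71 genes are called the chaperone genes below. The known counterparts *Dnaja3*, *Dnajb9*, *Dnajc3*, *Hspa5* and *Hspa9* were left out by the rule and are given with the organelle genes near the end.

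The data are polyA RNA-seq counts of 11 libraries of AML12 cells, 4 labelled KO, 3 WT and 4 KI. The KO cells are labelled a TXNDC5 knockdown, whereas the methods describe a stable knockout, with a CRISPR/Cas9 cut in the fifth exon of *Txndc5* and a puromycin resistance gene recombined into it. Puromycin was used for selection, and whether the KO cells come from 1 clone is not given in the sources used here. The KI cells are labelled a TXNDC5 knock-in, made to overexpress the gene from the ROSA26 safe-harbour site, as the series text puts it, and the WT cells are labelled wild type. The libraries bear the numbers 5 to 8 within each line, with 1 WT library named 5-6. Nothing states that libraries of 1 line came from separate cultures, so the p-values measure the spread between these libraries, which may be technical.

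Chaperones bind unfolded stretches of other proteins. The HSP70 proteins do so in cycles of ATP that J proteins start and that HSP110 and BAG proteins reset by exchanging the nucleotide. HSP90 takes over late folding steps of kinases and receptors, small heat shock proteins hold denatured clients without ATP, and the chaperonin TRiC/CCT encloses actin and tubulin in a double ring built of several kinds of subunit. In stressed cells the heat shock factor HSF1 binds repeats of the bases GAA and TTC in promoters and raises the transcription of many of these genes.

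The KO libraries held 30380360 to 38422243 counts each, and the totals were 29840366 to 30364098 for WT and 32360709 to 35335070 for KI. Levels are given as CPM (read counts relative to library size, scaled by the trimmed mean of M values, TMM, over all 11 libraries), as mean ± SD where a mean is given, with n = 4 for the KO, 3 for the WT and 4 for the KI cells. Fold changes are on the log2 scale, each from a fit of the 2 groups compared and given with its standard error. A gene was called where its adjusted p (Benjamini-Hochberg, over all genes tested) from edgeR's quasi-likelihood test was under 0.05.

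*Txndc5*, which encodes a protein disulfide isomerase of the endoplasmic reticulum (ER), was looked at first to check the labels. It had 10.2, 8.50, 12.9 and 9.39 CPM in the KO libraries, 147, 138 and 143 in the WT and 158, 179.5, 176 and 163 in the KI libraries. It was far lower in KO than in WT cells (log2 fold change -3.81 ± 0.15, edgeR adjusted p = 4.09e-08). Every KI library was above every WT library, but the difference was small and was not called (log2 fold change 0.24 ± 0.12, edgeR adjusted p = 0.136). With library totals in place of the scaling used here, it was called, at 0.57. The libraries labelled KI are called KI below.

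The line's identity was checked with markers of the cell types a liver culture could hold. The 8 hepatocyte markers summed to 10467 ± 836 CPM in the KO, 8686 ± 1137 in the WT and 9525 ± 689 in the KI cells, and all 8 were detected. The most abundant of them by mean was *Alb* in the KO, *Trf* in the WT and *Krt8* in the KI cells. In the WT cells *Trf* led through WT 8, at 4218 CPM. *Krt8* was above *Trf* in WT 5-6 (3357 against 2388 CPM) and WT 7 (2731 against 2319). Of the 8, 4 were called higher in KO against WT (*Alb*, *Apoa1*, *Apob* and *Hnf4a*), *Ttr* (-0.93) and *Trf* (-1.16) were called lower, and *Krt8* and *Krt18* were not called. *Alb*, the main plasma protein, stood at 4115 ± 524 CPM in the KO, 513 ± 198 in the WT and 246 ± 60.5 in the KI cells. The 4 endothelial markers summed to at most 0.425 CPM in any library and the 4 leukocyte markers to at most 9.20, with *Cd68* the most abundant of these. The leukocyte sum was 1.73 ± 0.368 CPM in the KO, 8.18 ± 1.29 in the WT and 3.84 ± 1.32 in the KI cells. *Adgre1*, *Tek*, *Col1a2* and *Epcam*, which define macrophages, endothelium, fibroblasts and biliary epithelium, were at 0 in all 11 libraries, while *Krt19* and *Vim* carried the biliary and fibroblast sums of 1148 ± 56.4 and 1223 ± 56.5 CPM in the KO cells against 994 ± 119 and 772 ± 110 in the WT cells. The other biliary markers went the other way in KO against WT, with *Krt7* at a mean of 17.0 CPM against 177 (log2 fold change -3.40 ± 0.12, edgeR adjusted p = 2.32e-08) and *Sox9* called lower (-0.47). The part of these differences in the results below was not tested. In bulk RNA, fewer cells of a type and less RNA per cell cannot be told apart.

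The WT libraries varied most. The median SD of a gene between libraries was 0.256 on the log2 scale in the WT, against 0.152 in the KO and 0.165 in the KI cells, and for the chaperone genes it was 0.243, 0.128 and 0.124. Library WT 8 lay farthest from its group, with a median deviation of 0.217 (log2), and WT 5-6 had the next largest value at 0.178. Leaving out WT 8 added 13 calls among the chaperone genes in KI against WT and ended none, and leaving out WT 5-6 ended 8 and added 2 in KO against WT. Over all genes, the calls in KI against WT went from 5722 of 13534 to 6969 of 13837 without WT 8. Those in KO against WT went from 7364 of 13359 to 6743 of 13704 without WT 5-6.

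The label "cytosolic" holds for most but not all of the 71 genes. By their known sites, *Dnajb11*, *Dnajb12*, *Dnajb14*, *Dnajc1*, *Dnajc10*, *Dnajc25* and *Hspa13* encode ER or ER membrane proteins, and *Dnajc4*, *Dnajc11*, *Dnajc15*, *Dnajc19*, *Dnajc28* and *Dnajc30* mitochondrial ones. *Hspb11*, a subunit of the intraflagellar transport complex, *Hspbap1* and *Dnajc27*, a small GTPase with a J domain, carry a chaperone name but are known for other roles. The remaining 55 are called core genes, although *Dnajc14*, *Dnajc16* and *Dnajc18* among them are also known from the ER membrane. Of the 15 names that missed the count minimum, *Dnajb8*, *Dnajc5b*, *Dnajc5g* and *Hspb3* had no count in any library. The others were *Cct6b*, *Cct8l1*, *Dnajb13*, *Dnajb3*, *Dnajb7*, *Dnajc6*, *Hsbp1l1*, *Hspa12b*, *Hspb2*, *Hspb7* and *Hspb9*, several of them known from testis or muscle. Just inside the minimum, *Hspa12a* had 3 to 33 counts a library and reached 10 counts in 5 libraries. Just outside it, *Dnajb3*, *Dnajb7*, *Hspa12b*, *Hspb2* and *Hspb7* reached 10 counts in 1 library each, with at most 22 counts.

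In KO against WT cells the chaperone genes moved in both directions. Of the 71 genes 70 could be tested, 22 were called higher, 20 lower and 28 were not called, where 26.7% of all genes tested were called higher and 28.4% lower. Their median log2 fold change was 0.04, against -0.03 over all genes tested. The groups did not overlap for 45 of the 70, against 55.3% of all genes. Under scaling by library totals alone, the median of all genes itself shifted to 0.38, and 40 chaperone genes were then called higher and 8 lower. Of all 13359 genes tested, 5675 were called higher and 2124 lower in that fit, so the split between rises and falls depends on the scaling. The TMM factors were 0.7436 to 0.9467 in the WT, 1.048 to 1.131 in the KO and 1.016 to 1.116 in the KI libraries. The largest newly assembled entry took 11.27% to 17.07% of the counts in the WT libraries. In the KO libraries it took 4.316% to 6.441%, and 4.824% to 9.124% in the KI. With TMM scaling and without the 2 largest such entries, 22 chaperone genes were called higher and 20 lower. The part of these entries in the shift under library totals was not tested. Among the core genes alone 17 were called higher and 15 lower, or 16 and 14 when *Dnajc14*, *Dnajc16* and *Dnajc18* were left out too. With a log2 fold change beyond 1 also required, 12 chaperone genes were higher and 5 lower, where the background was 10.5% and 14.9%.

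In KI against WT cells 17 of the 71 genes were called higher, 12 lower and 42 were not called, where 21.2% of all genes were called higher and 21% lower. Their median log2 fold change was 0.12, against -0.02 over all genes, and the groups did not overlap for 32 of 71, against 44.7% of all genes. Of the 55 core genes 16 were called higher and 6 lower, and the other falls were of genes outside the core. With library totals the median of all genes was 0.30, and 32 chaperone genes were called higher and 6 lower, where 4620 of 13534 genes tested were higher and 1438 lower. Without library WT 8, 23 were called higher and 19 lower, where 3601 of 13837 genes tested were higher and 3368 lower. Only 3 rose and 3 fell beyond 1 on the log2 scale, against 6.98% and 9.35% of all genes. In KO against KI cells 22 were called higher, 15 lower and 34 were not called, with 27% of all genes called in each direction, and the groups did not overlap for 36 of 71 genes, against 48.6% of all genes. Over the core genes alone 12 were called higher and 13 lower in that comparison. Beyond 1 on the log2 scale 6 were higher and 3 lower, against 7.69% and 9.49% of all genes. The comparisons of KO and of KI with WT share the 3 WT libraries.

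Summed over the 71 genes, the KO libraries held 10424 ± 323 CPM, the WT libraries 11233 ± 1284 and the KI libraries 11062 ± 343. The highest sum was that of WT 5-6 at 12671 CPM, and WT 8 with 10201 lay within the KO range of 10161 to 10861. The groups therefore overlapped in the total.

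**Figure D1:**
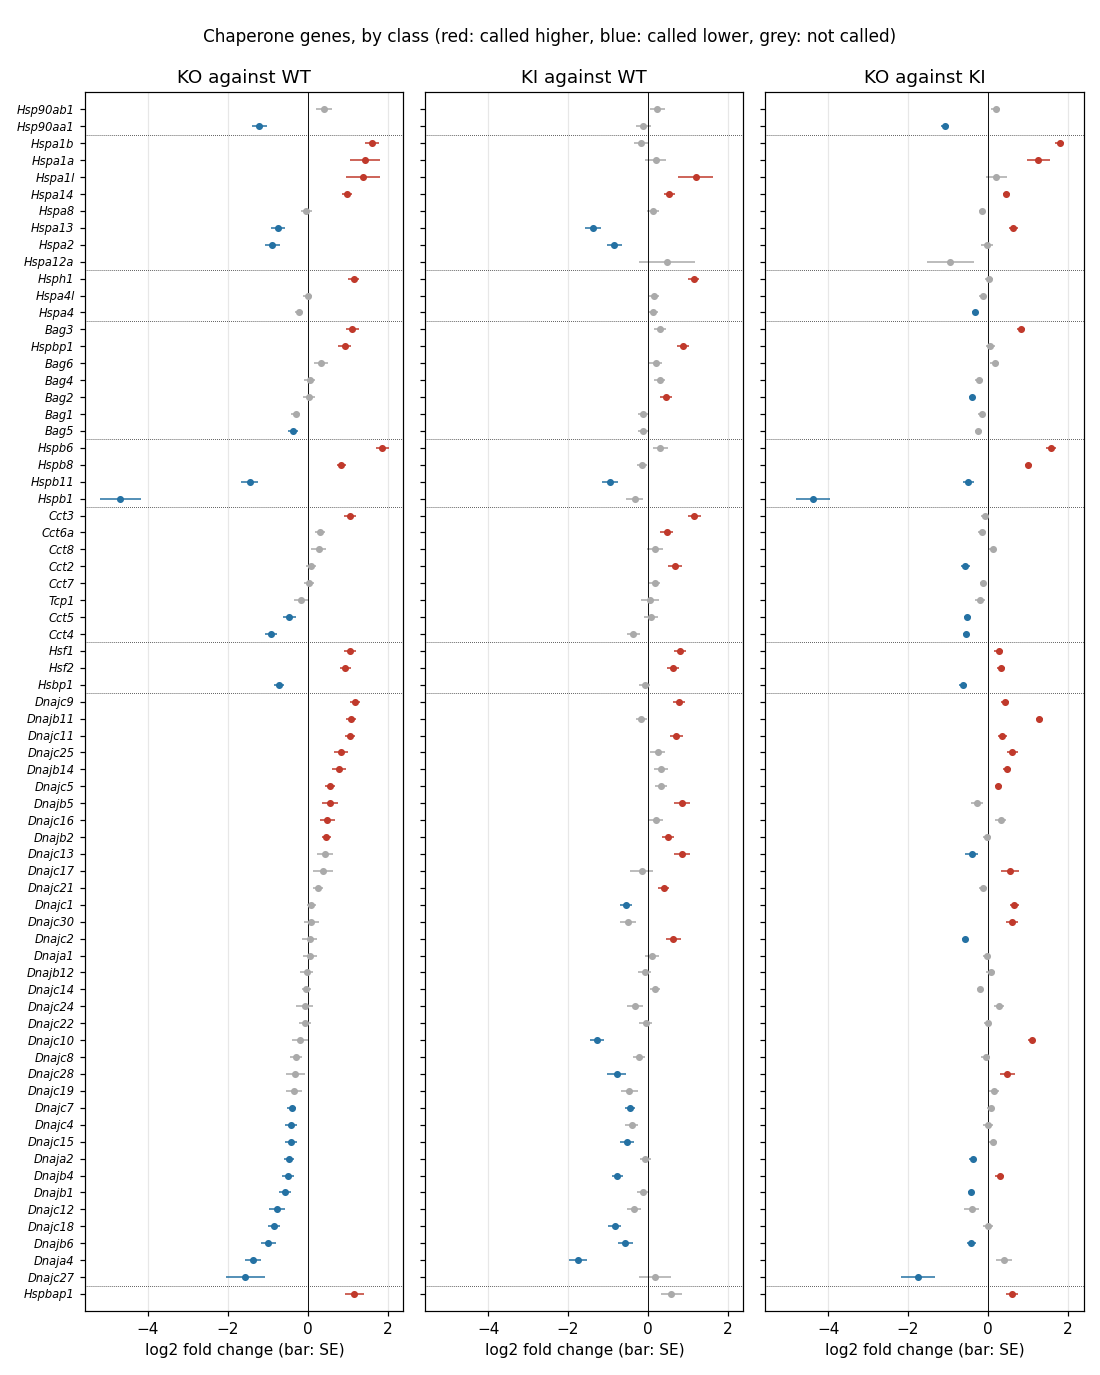
Log2 fold change of each chaperone gene (x axis, points with standard error bars) in KO against WT, KI against WT and KO against KI, grouped by class from HSP90 at the top to the J proteins and *Hspbap1* at the bottom. Red and blue points were called higher and lower and grey ones were not called, and *Hspb1* lies farthest out at -4.70 in KO against WT and -4.38 in KO against KI.

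The regulators were looked at before their targets. *Hsf1*, the main activator of the heat shock response, had 27.1, 33.8, 29.9 and 35.2 CPM in the KO libraries, 13.4, 14.2 and 17.1 in the WT and 26.6, 28.0, 25.2 and 25.0 in the KI libraries. Both edited lines lay wholly above the WT cells, with KO against WT at log2 fold change 1.05 ± 0.15, edgeR adjusted p = 0.000181, and KI against WT at log2 fold change 0.81 ± 0.15, edgeR adjusted p = 0.000954. The KO and KI libraries overlapped, and their small difference (log2 fold change 0.27 ± 0.11, edgeR adjusted p = 0.0423) was no longer called when any of 6 libraries was left out, with 0.21 as the lowest value. *Hsf2*, a second heat shock factor, followed the same order at 25.3 ± 1.85 CPM in the KO, 12.9 ± 0.872 in the WT and 20.1 ± 1.76 in the KI cells, and was called higher in both edited lines. *Hsbp1*, whose product binds the trimer of HSF1 and counters it, had 70.7, 69.8, 72.3 and 59.0 CPM in the KO libraries against 127, 106 and 100.03 in the WT and 113, 113, 102 and 92.4 in the KI libraries. It fell in KO cells against both other lines (log2 fold change -0.73 ± 0.13, edgeR adjusted p = 0.000644 against WT) and was not called in KI against WT (-0.08).

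Promoters were read to see which chaperone genes hold the bases that heat shock factors are known to bind. RefSeq promoter windows of the GRCm38.p6 build, from 250 bases before to 50 after the start site, were matched by symbol for 57 of the 71 genes. The element GAANNTTC, which reads the same on both strands, was present in 12 of these 57 genes (21.1%), against 9.04% of 27025 genes with a window and 7.86% of all 32851 windows. These were *Bag3*, *Cct2*, *Dnaja1*, *Dnaja4*, *Dnajb6*, *Dnajc27*, *Hspa1a*, *Hspa1b*, *Hspb1*, *Hspb6*, *Hspb8* and *Hsph1*. A longer form, in which a further GAA follows GAANNTTC after 2 more bases, or its reverse complement, was found in *Dnajb6* and *Hsph1* alone of the 57, and in 0.662% of all genes. In KO against WT cells 6 of the 12 were called higher (*Bag3*, *Hspa1a*, *Hspa1b*, *Hspb6*, *Hspb8* and *Hsph1*) and 4 lower (*Dnaja4*, *Dnajb6*, *Dnajc27* and *Hspb1*). Of all genes tested 26.7% were called higher and 28.4% lower, and of the 44 tested chaperone genes with neither form in a window 13 were higher and 11 lower. The call of *Dnajc27* was lost without WT 5-6 or WT 8 (-1.49 and -1.29) and under library totals (-1.22). Under that scaling *Cct2* and *Dnaja1* became called higher (both 0.49), and over all chaperone genes 40 were higher and 8 lower. A match in the window is a description of the letters and not a measured binding site.

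The promoter stretches of 5 of these genes are shown because their RNA moved in opposite directions in the KO cells. Capitals mark GAANNTTC, and in *Dnajb6* the longer form, each line runs 5′ to 3′ on the strand of the gene, and all lie before the start site in GRCm38.p6. *Dnajb6* is at chr5:29735832-29735884 on the plus strand, *Hspb1* at chr5:135887782-135887849 on the plus strand with 2 elements and *Hspb6* at chr7:30553161-30553208 on the plus strand. *Hspa1a* at chr17:34972233-34972280 and *Hspa1b* at chr17:34959315-34959362, both on the minus strand, have the same 48 bases here.
Dnajb6: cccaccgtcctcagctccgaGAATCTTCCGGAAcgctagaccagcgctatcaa
Hspb1: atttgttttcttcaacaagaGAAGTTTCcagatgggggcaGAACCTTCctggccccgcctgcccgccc
Hspb6: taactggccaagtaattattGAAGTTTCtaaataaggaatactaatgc
Hspa1a: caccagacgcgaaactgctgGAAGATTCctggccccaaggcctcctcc
Hspa1b: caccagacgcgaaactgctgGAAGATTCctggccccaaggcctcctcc

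The cytosolic HSP90 proteins are encoded by *Hsp90aa1*, known as the stress-inducible form, and *Hsp90ab1*, the constitutive form. *Hsp90aa1* had 737, 644, 642 and 595 CPM in the KO libraries, 1770.4, 1676 and 1043 in the WT and 1448, 1347, 1241 and 1496 in the KI libraries. All 4 KO libraries lay below all others, at log2 fold change -1.21 ± 0.19, edgeR adjusted p = 0.000295 against WT and log2 fold change -1.08 ± 0.0956, edgeR adjusted p = 2.23e-07 against KI, while KI against WT was not called (-0.12). *Hsp90ab1* had 1089, 1382, 1211 and 1459 CPM in the KO libraries, 770.0, 824 and 1281 in the WT and 1200.3, 1163, 1158 and 987 in the KI libraries. It was called in none of the 3 comparisons, with KO against WT at log2 fold change 0.40 ± 0.20, edgeR adjusted p = 0.104. Library WT 8 was the high one of the 3 WT libraries, and without it *Hsp90ab1* was called higher in KO against WT, at 0.70 with an edgeR adjusted p of 0.0012, and in KI against WT, at 0.50 with an edgeR adjusted p of 0.00755. It was also called in KO against WT with all 11 libraries in 1 fit (0.42), and in KO against KI without KO 5 (0.26).

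Per kilobase of exon length, *Hsp90aa1* stood at 443 ± 117 CPM per kb and *Hsp90ab1* at 380.3 ± 111 in the WT cells, a difference within their spread. Much of that spread lay in WT 8, which had the lowest *Hsp90aa1* and the highest *Hsp90ab1* level of the WT libraries. In the KO cells the levels were 194 ± 17.6 for *Hsp90aa1* and 510.1 ± 66.2 for *Hsp90ab1*. In the KI cells, at 409 ± 33.6 and 447 ± 37.8 CPM per kb, the levels again overlapped within their SDs. *Hsp90ab1* was thus the higher of the pair in the KO cells, while the difference between the changes of the pair was not tested.

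**Figure D2:**
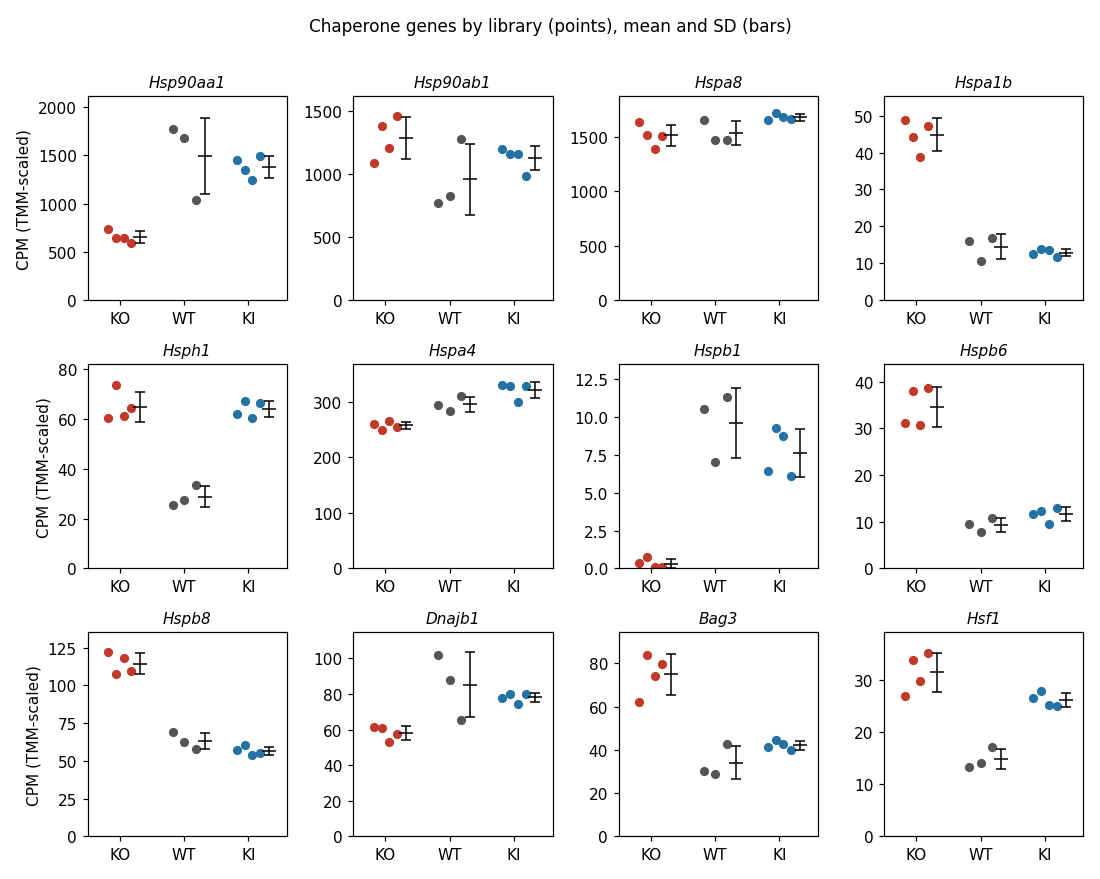
CPM of 12 chaperone, cofactor and regulator genes in each library (points), with the mean and SD (bars) of the KO (n = 4), WT (n = 3) and KI (n = 4) cells. The y axes start at 0 and differ between panels, and the KO points lie apart from the others for *Hsp90aa1*, *Hspa1b*, *Hspa4*, *Hspb1*, *Hspb6*, *Hspb8*, *Dnajb1* and *Bag3*, whereas for *Hsph1* and *Hsf1* the WT points are the ones set apart.

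Of the 8 HSP70 genes, 7 were tested in KO against WT cells, and 4 were called higher and 2 lower, against 26.7% and 28.4% of all genes. With library totals 5 were higher and none lower, where 5675 of all 13359 genes were higher and 2124 lower. *Hspa8*, the constitutive HSC70 that carries much of the normal folding load, had the highest level per length of all 71 genes, at 632 ± 41.5 CPM per kb in the KO, 640.4 ± 45.3 in the WT and 701 ± 11.8 in the KI cells. Its fold change was -0.04 ± 0.14 in KO against WT and 0.13 ± 0.15 in KI against WT, and edgeR called it in no comparison. DESeq2 called it lower in KO against KI (-0.16, DESeq2 adjusted p = 0.0419). Under library totals its KO against WT value was 0.38, the size of the shift of all genes, and was called.

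The stress-inducible *Hspa1b* had 48.9, 44.3, 38.9 and 47.2 CPM in the KO libraries, 16.1, 10.7 and 16.9 in the WT and 12.6, 13.8, 13.6 and 11.6 in the KI libraries. Every KO library lay far above every other library, at log2 fold change 1.60 ± 0.17, edgeR adjusted p = 2.62e-05 against WT and log2 fold change 1.80 ± 0.11, edgeR adjusted p = 2.64e-09 against KI, with no call in KI against WT (-0.17). Its near-identical neighbour *Hspa1a* had 8.47, 2.90, 9.96 and 5.41 CPM in the KO libraries, 2.94, 1.98 and 2.27 in the WT and 2.63, 2.95, 2.77 and 2.65 in the KI libraries. It was called higher in KO than in WT cells (log2 fold change 1.44 ± 0.38, edgeR adjusted p = 0.00756), but KO 6 lay inside the range of the WT libraries. Their coding sequences in the GENCODE transcripts differ in 11 of 1929 aligned bases and their promoter windows in 4 of 300, and each gene is split over 4 numbered entries of the table, so how reads were shared between them is uncertain. *Hspa1l*, also with 4 entries, reached at most 2.49 CPM in any library and was called higher in KO than in WT cells (1.38), a call lost without WT 5-6 (1.23) or WT 7 (1.12).

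*Hspa14*, *Hspa2* and *Hspa13* were each called in the same direction in both edited lines. *Hspa14*, whose product works with the J protein of *Dnajc2* on nascent chains at the ribosome, had 82.9, 75.3, 78.3 and 67.0 CPM in the KO libraries, 41.4, 39.4 and 33.2 in the WT and 54.5, 59.9, 53.8 and 52.5 in the KI libraries. The 3 lines did not overlap, with log2 fold change 0.98 ± 0.13, edgeR adjusted p = 0.000111 in KO against WT and log2 fold change 0.54 ± 0.14, edgeR adjusted p = 0.00698 in KI against WT. *Dnajc2* itself was at 65.0 ± 3.32, 62.0 ± 19.7 and 96.8 ± 5.74 CPM and was called higher in KI against WT (0.64, not called without WT 7 at 0.65) and lower in KO against KI (-0.57). *Hspa2*, best known from testis, fell in both edited lines, with 8.93 ± 1.09 CPM in the KO, 16.3 ± 4.06 in the WT and 9.09 ± 1.39 in the KI cells, and neither fall was called under library totals (-0.50 and -0.54). *Hspa13*, the microsomal member, had 81.6, 76.8, 80.2 and 67.5 CPM in the KO libraries, 138, 155 and 86.1 in the WT and 44.6, 44.6, 44.1 and 63.6 in the KI libraries. It fell in both edited lines and more in the KI (log2 fold change -1.36 ± 0.20, edgeR adjusted p = 0.000209) than in the KO cells (log2 fold change -0.75 ± 0.18, edgeR adjusted p = 0.00522), a gap that the KO against KI fit also called (0.64). Under library totals the KO fall was not called (-0.31). *Hspa12a* had too few counts for the KO against WT fit and was not called in the others.

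In the HSP110 family, whose members exchange the nucleotide of HSP70, *Hsph1* had 60.3, 73.5, 61.3 and 64.5 CPM in the KO libraries, 25.3, 27.5 and 33.6 in the WT and 61.9, 67.1, 60.5 and 66.4 in the KI libraries. Both edited lines lay wholly above WT, at log2 fold change 1.15 ± 0.14, edgeR adjusted p = 6.2e-05 for KO and log2 fold change 1.15 ± 0.14, edgeR adjusted p = 5.75e-05 for KI, and they overlapped each other. *Hspa4* had 258 ± 6.48 CPM in the KO, 296 ± 13.5 in the WT and 322 ± 14.6 in the KI cells, and edgeR called it in KO against KI (-0.32). Its KO against WT value (-0.22) was called by DESeq2 alone of the tools (-0.24), with a DESeq2 adjusted p of 0.00929. *Hspa4l* stood at 116 ± 8.04 CPM in the KO, 115 ± 2.79 in the WT and 127 ± 9.25 in the KI cells and was not called.

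Of the 7 nucleotide exchange and BAG genes, 2 were called higher and 1 lower in KO against WT cells, where 55.1% of all genes were called in either direction. With library totals 4 were higher and none lower, where 5675 of all 13359 genes were higher and 2124 lower. *Bag3*, whose product couples HSP70 and HSPB8 to autophagy, had 61.9, 83.9, 74.0 and 79.8 CPM in the KO libraries, 30.3, 29.0 and 42.7 in the WT and 41.4, 44.5, 42.6 and 39.8 in the KI libraries. KO cells lay above both other lines, at log2 fold change 1.12 ± 0.17, edgeR adjusted p = 0.000223 against WT and log2 fold change 0.84 ± 0.10, edgeR adjusted p = 6.49e-06 against KI, and KI against WT, at 0.31, was called without WT 8 (0.50, edgeR adjusted p = 0.0042). *Hspbp1*, an exchange factor of HSP70, rose in both edited lines, from 38.2 ± 6.76 CPM in the WT to 73.4 ± 12.2 in the KO and 70.5 ± 7.28 in the KI cells. *Bag5* fell a little in the KO cells (log2 fold change -0.37 ± 0.13, edgeR adjusted p = 0.0298), which was not called without KO 6, KO 7, KO 8 or WT 5-6 (-0.23 without the last), nor under library totals (0.050). *Bag2*, whose product inhibits the ligase CHIP, was called higher in KI against WT cells (log2 fold change 0.45 ± 0.15, edgeR adjusted p = 0.0278), a call that was lost without any 1 of 5 libraries, at 0.31 without WT 5-6. *Bag1*, whose product links HSP70 to the proteasome, was called in no comparison. Its KO against WT value of -0.30 ± 0.12 was called without WT 8 (-0.34) and with DESeq2 (-0.33). *Bag4* was called higher in both edited lines under library totals (0.46 and 0.62), and *Bag6* was called higher in both edited lines without WT 8, at 0.61 for KO and 0.44 for KI.

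*Bag3*, *Hspbp1* and *Hspb6* lie on chromosome 7 in the GENCODE annotation, where the median log2 fold change of the 932 genes tested was 0.53 in KO against WT and 63.7% were called. *Dnajb11* and *Hspbap1* lie on chromosome 16, with a median of 0.49 over 373 genes, and *Hsp90aa1*, *Hspa2*, *Bag5* and *Dnajc27* on chromosome 12, with -0.34 over 404 genes. Chromosome 16 also holds *Hspa13*, called lower (-0.75), and *Cct8* (0.28) and *Dnajc28* (-0.31), which were not called. In KI against WT the medians of chromosomes 7, 16 and 12 were 0.10, -0.03 and 0.06. Chromosomes 11, 14, 18 and 19 had KO against WT medians of -0.34, -0.36, -0.32 and -0.33. On these, *Cct4*, *Dnajc4*, *Dnajc7*, *Dnajc15* and *Dnajc18* were called lower, *Dnajc9* was called higher (1.18) and *Hspa4* was not called. The part of these chromosome-wide shifts in the single genes was not tested.

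All 4 small heat shock protein genes that passed the minimum were called in KO against WT cells, 2 in each direction, where 55.1% of all genes were called. *Hspb1* (HSP25 of the mouse), an abundant holdase in many stressed cells, had 0.336, 0.770, 0.0600 and 0.115 CPM in the KO libraries, 10.5, 7.02 and 11.3 in the WT and 6.43, 9.26, 8.73 and 6.14 in the KI libraries. In raw counts these were 12, 26, 2 and 5 in the KO libraries and 174 to 320 in the WT libraries, so the KO level rests on few reads. It fell in the KO cells against WT (log2 fold change -4.70 ± 0.51, edgeR adjusted p = 2.9e-05) and against KI (log2 fold change -4.38 ± 0.43, edgeR adjusted p = 5.94e-07), and KI against WT was not called (-0.33). Its partner in name, *Hspbap1*, whose product binds HSPB1, rose in the KO cells from 3.53 ± 1.20 to 8.16 ± 0.643 CPM (log2 fold change 1.17 ± 0.24, edgeR adjusted p = 0.0019).

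*Hspb6* (HSP20) went the other way, with 31.1, 38.1, 30.8 and 38.7 CPM in the KO libraries, 9.45, 7.79 and 10.7 in the WT and 11.7, 12.3, 9.57 and 13.0 in the KI libraries. All KO libraries lay far above all others, at log2 fold change 1.87 ± 0.16, edgeR adjusted p = 6.31e-06 against WT, and this was the largest rise among the chaperone genes in that comparison. *Hspb8* (HSP22), the client-holding partner of BAG3, had 122, 108, 118 and 109.9 CPM in the KO libraries, 69.1, 62.3 and 58.1 in the WT and 57.2, 60.4, 54.0 and 55.5 in the KI libraries. It rose in KO against WT (log2 fold change 0.84 ± 0.12, edgeR adjusted p = 0.000146) and against KI cells (log2 fold change 1.01 ± 0.0821, edgeR adjusted p = 7.68e-08). *Hspb8* and *Bag3* were called in the same comparisons and directions. *Hspb11*, the transport subunit, fell in both edited lines, with 13.0 ± 1.64 CPM in the KO cells, 35.4 ± 11.1 in the WT cells and 16.8 to 22.1 in the KI libraries.

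The chaperonin TRiC/CCT needs all 8 subunits, and *Tcp1*, *Cct2*, *Cct3*, *Cct4*, *Cct5*, *Cct6a*, *Cct7* and *Cct8* were all expressed. In KO against WT cells 1 was called higher and 2 lower, with a median log2 fold change of 0.06, and in KI against WT cells 3 were higher and none lower, with a median of 0.18. In KO against KI cells none was higher and 3 were lower, with a median of -0.17. In each comparison 3 of the 8 were called (37.5%), beside 55.1%, 42.3% and 54% of all genes. Single libraries moved these values. The KO against WT median was 0.14, with 3 higher and 1 lower, without WT 5-6 and 0.028 without WT 7. For KI against WT it was 0.41 without WT 5-6, 0.098 without WT 7 and 0.084 without WT 8, and without KI 8 the KO against KI median was -0.29 with 5 lower. Of all genes, 3418 of 13704 were higher and 3325 lower in KO against WT without WT 5-6. In KO against KI without KI 8, 3620 of 13453 were lower. With library totals the KO against WT median was 0.47 and 5 were called higher and 1 lower, and KI against WT had 6 higher and none lower. Over all genes the medians were then 0.38 and 0.30, with 5675 of 13359 and 4620 of 13534 higher, and 2124 and 1438 lower. The summed level of the 8 subunits was 2269 to 2484 CPM in the KO libraries, 3055, 2142 and 2235 in WT 5-6, WT 7 and WT 8, and 2405 to 3034 in the KI libraries, so that the groups overlapped.

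*Cct3*, the gamma subunit, had 165, 180.1, 157 and 178 CPM in the KO libraries, 69.5, 72.8 and 99.0 in the WT and 182, 188, 196 and 153 in the KI libraries. All libraries of both edited lines were above all WT libraries, at log2 fold change 1.06 ± 0.15, edgeR adjusted p = 0.00013 for KO and log2 fold change 1.16 ± 0.16, edgeR adjusted p = 0.000137 for KI. Per kilobase it was the lowest of the 8 subunits in WT cells, at 35.4 ± 7.11 CPM per kb, against 74.7 ± 4.76 in the KO and 78.9 ± 8.27 in the KI cells. *Cct4*, the delta subunit, had 237, 210.5, 202 and 195 CPM in the KO libraries, 489, 377 and 327 in the WT and 313, 325, 302 and 300.1 in the KI libraries. It was ordered WT, KI, KO without overlap and fell in KO cells against WT (log2 fold change -0.93 ± 0.15, edgeR adjusted p = 0.000383) and KI (log2 fold change -0.55 ± 0.0832, edgeR adjusted p = 5.38e-05). KI against WT (-0.36) was called without WT 8 (-0.48, edgeR adjusted p = 0.00705), with DESeq2 (-0.38) and with all 11 libraries in 1 fit (-0.36).

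*Cct5*, the epsilon subunit and the most abundant per length, had 415, 374, 352 and 357 CPM in the KO libraries, 651, 461 and 418 in the WT and 541, 589, 528 and 491 in the KI libraries. The fall in KO against WT cells (log2 fold change -0.46 ± 0.16, edgeR adjusted p = 0.0296) was lost without KO 6, KO 7, KO 8 or WT 5-6, with -0.23 without the last, and under library totals (-0.030), while the fall against KI (log2 fold change -0.52 ± 0.0880, edgeR adjusted p = 0.000156) was larger than the spread. *Cct2*, the beta subunit, had 216, 228, 217 and 244 CPM in the KO libraries, 201, 189 and 239 in the WT and 351, 358, 378 and 257 in the KI libraries. It was higher in KI than in WT cells (log2 fold change 0.68 ± 0.16, edgeR adjusted p = 0.00545) and did not differ by a call between KO and WT. *Cct6a*, the zeta subunit, was called higher in KI against WT (log2 fold change 0.47 ± 0.16, edgeR adjusted p = 0.0299), although library KI 8 lay inside the WT range and the call was lost without WT 7, KI 5, KI 6 or KI 7, at 0.37 without WT 7. *Cct6a* was also called higher in KO against WT (0.30) without WT 5-6 (0.44) or WT 8 (0.31), and in KO against KI lower without KI 8 (-0.24).

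*Tcp1*, *Cct7* and *Cct8*, the alpha, eta and theta subunits, were called in no comparison. *Tcp1* varied widely within the WT at 647, 339.6 and 439 CPM and within the KI at 576, 546, 498 and 350.3, against 453, 433, 431 and 393 in the KO libraries. It was called lower in KO against KI without KI 8 (-0.34). *Cct8* had 476, 286 and 271 CPM in the WT libraries, and without WT 5-6, the high one, it was called higher in both edited lines, at 0.60 for KO and 0.49 for KI. *Cct7* stood at 270.4 ± 16.2 CPM in the KO, 261 ± 25.9 in the WT and 294 ± 19.6 in the KI cells.

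**Figure D3:**
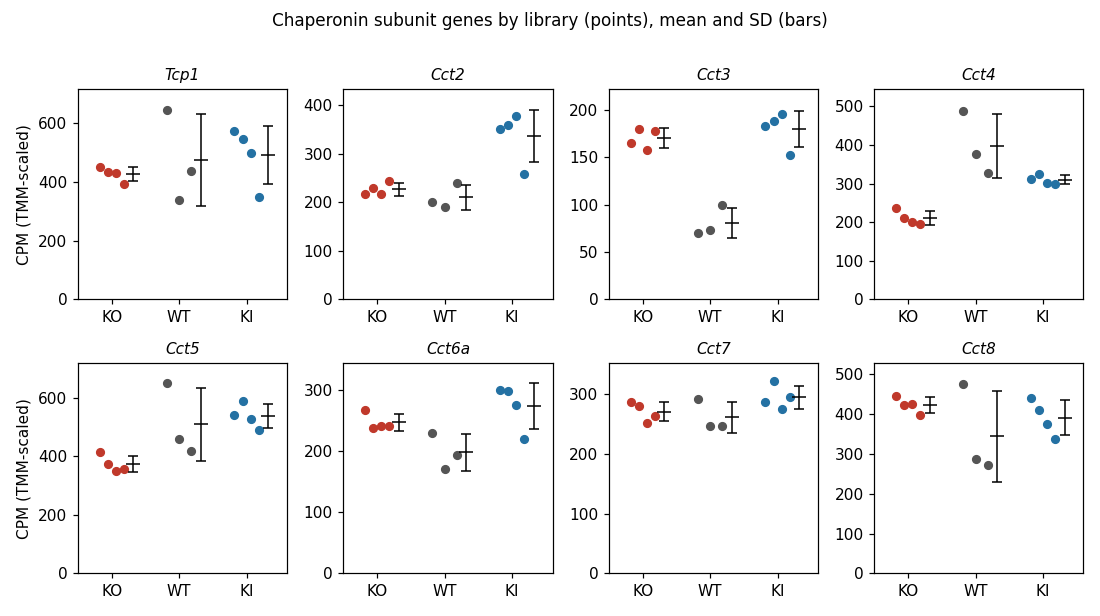
CPM of the 8 chaperonin subunit genes in each library (points), with the mean and SD (bars) of the KO (n = 4), WT (n = 3) and KI (n = 4) cells, y axes from 0. For *Cct3* both edited lines lie above the WT points, for *Cct4* and *Cct5* the KO points lie below all others, and library WT 5-6 is the high WT point for *Tcp1*, *Cct4*, *Cct5*, *Cct6a*, *Cct7* and *Cct8*.

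The J proteins, 35 of the 71 genes, bring clients to HSP70 and start its ATPase. In KO against WT cells 9 were called higher and 11 lower, with a median log2 fold change of -0.04. In KI against WT cells 7 were higher and 9 lower, with a median of -0.13, and in KO against KI cells 12 were higher and 6 lower, with a median of 0.07. The shares called, 57.1%, 45.7% and 51.4%, were near the 55.1%, 42.3% and 54% of all genes. With library totals 18 were higher and 3 lower in KO against WT, 12 and 4 in KI against WT, and 14 and 5 in KO against KI. Of all genes, 5675 of 13359, 4620 of 13534 and 3937 of 13269 were higher with that scaling, and 2124, 1438 and 3078 lower. Without library WT 8, 15 J protein genes rather than 9 were lower in KI against WT, where 3368 of 13837 genes rather than 2848 of 13534 were lower. By group, none of the 3 DNAJA genes was called higher and 2 were lower in KO against WT, 4 of the 8 DNAJB genes were higher and 3 lower, and 5 of the 24 DNAJC genes were higher and 6 lower. These are 66.7%, 87.5% and 45.8% called, again beside 55.1% of all genes. Without WT 5-6 only 3 of the DNAJC genes were lower, where 3325 of 13704 genes rather than 3796 of 13359 were lower.

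*Dnajb1*, the stress-inducible HSP40 that serves HSPA1, had 61.5, 60.7, 52.8 and 57.3 CPM in the KO libraries, 102, 88.0 and 65.7 in the WT and 77.9, 80.0, 74.6 and 80.3 in the KI libraries. It fell in the KO cells against WT (log2 fold change -0.57 ± 0.15, edgeR adjusted p = 0.00748) and KI (log2 fold change -0.42 ± 0.0831, edgeR adjusted p = 0.000521), opposite in sign to *Hspa1b*. Under library totals the first of these stood at -0.14 and was not called. *Dnajb6*, a suppressor of protein aggregation, had 218, 194, 209.8 and 162 CPM in the KO libraries, 435, 452 and 267 in the WT and 252, 247, 222 and 325 in the KI libraries. It was lower in KO than in WT cells (log2 fold change -0.99 ± 0.19, edgeR adjusted p = 0.00106), and its lower level in KI against WT (log2 fold change -0.56 ± 0.20, edgeR adjusted p = 0.0347) overlapped with WT 8 and was not called without WT 5-6, WT 7, KI 5, KI 6 or KI 7. *Dnaja4*, a DNAJA cochaperone of HSP70, fell in both edited lines without overlap, from 12.8, 10.4 and 8.53 CPM in the WT to 4.77, 3.14, 4.23 and 4.21 in the KO and 2.80, 3.69, 3.37 and 2.49 in the KI libraries (log2 fold change -1.38 ± 0.21, edgeR adjusted p = 0.000227 for KO).

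*Dnaja1*, another general J protein, was called in no comparison, at 0.05 ± 0.18 in KO against WT and 0.11 ± 0.17 in KI against WT, although library totals called it higher in both (0.49 and 0.46). *Dnaja2* fell in KO against WT (log2 fold change -0.47 ± 0.13, edgeR adjusted p = 0.0112, not called under library totals at -0.045) and not by a call in KI against WT (-0.06). *Dnajc7*, whose product also holds HSP90, was lower in both edited lines at -0.41 and -0.45, but under library totals neither was called, at 0.0015 and -0.13, and the KI call was also lost without KI 7 (-0.40). *Dnajb4* was lower in both edited lines (-0.49 and -0.77), and the first of these calls was lost without WT 7 (-0.43) and under library totals (-0.076). *Dnajb2* and *Dnajb5* were called higher in both, *Dnajb2* at 0.46 and 0.51 and *Dnajb5* at 0.55 and 0.85, the first of these lost without KO 6 (0.47), KO 7, WT 5-6 or WT 7.

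Among the specialised J proteins, *Dnajc9*, a chaperone of histones H3 and H4, had 38.2, 38.9, 37.0 and 33.8 CPM in the KO libraries, 15.7, 17.8 and 14.5 in the WT and 27.9, 30.7, 26.4 and 25.1 in the KI libraries. The 3 lines did not overlap, and KO against WT was at log2 fold change 1.18 ± 0.14, edgeR adjusted p = 3.98e-05. *Dnajc11*, a mitochondrial outer membrane protein, followed the same order with 1.05 for KO and 0.71 for KI against WT. *Dnajc13*, which acts on endosomes, was called higher in KI against WT (0.86) with 86.2, 71.7, 103 and 60.0 CPM in the KI libraries against 36.0, 40.7 and 55.6 in the WT, and it was called higher in KO against WT too without KO 5 (0.55) or WT 8 (0.66). *Dnajc18* was lower in both edited lines at -0.85 and -0.83.

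Of the 7 ER members, 3 were called higher and 1 lower in KO against WT, and none higher and 3 lower in KI against WT. Of all genes 26.7% were higher and 28.4% lower in the first of these, and 21.2% and 21% in the second. With library totals the counts were 4 higher and none lower, and 2 and 2. Of all genes, 5675 of 13359 were then higher and 2124 lower in the first comparison, and 4620 of 13534 and 1438 in the second. In KO against KI, 6 of the 7 were called higher and none lower, with a median of 0.64, against a background of 27% of all genes called higher. *Dnajc10* (ERdj5), a disulfide reductase of the ER, had 1172, 1001, 1102 and 903 CPM in the KO libraries, 1565, 1068 and 914 in the WT and 505, 492, 468 and 494 in the KI libraries. All KI libraries were below all others, at log2 fold change -1.27 ± 0.18, edgeR adjusted p = 0.000149 against WT, and KO against WT was not called. *Dnajb11* (ERdj3), a secreted cofactor of BiP, had 145, 136, 128 and 127 CPM in the KO libraries, 55.0, 62.1 and 68.8 in the WT and 54.4, 55.1, 50.3 and 61.5 in the KI libraries. Here the KO cells stood apart, at log2 fold change 1.09 ± 0.12, edgeR adjusted p = 3.79e-05 against WT and log2 fold change 1.28 ± 0.0877, edgeR adjusted p = 1.2e-08 against KI. *Dnajb12*, an ER membrane J protein, was the member not called. With *Dnajc14*, *Dnajc16* and *Dnajc18* added, a choice made after seeing the values, 6 of 10 were called higher, with a median of 0.55. The median over all genes in KO against KI was 0.39 on chromosome 2, which holds *Dnajc10*, *Dnajc1* and *Hspa5*, and 0.50 on chromosome 16, which holds *Dnajb11* and *Hspa13*. Their part in these values was not tested. Of the 6 mitochondrial members 1 was called higher and 2 lower in each edited line against WT, and 3 higher and none lower in KO against KI. In each comparison 50% of the 6 were called, beside 55.1%, 42.3% and 54% of all genes. The falls were of *Dnajc4* and *Dnajc15* in the KO and of *Dnajc15* and *Dnajc28* in the KI cells. Both KO calls were lost without KO 6, KO 8 or WT 5-6 (-0.27 and -0.25 without the last), and both KI calls without WT 5-6 (-0.36 and -0.72). Neither line had a fall under library totals, where 2124 of 13359 genes were lower in the KO and 1438 of 13534 in the KI cells. Without WT 8 the KI cells had 5 falls among these members, where 3368 of 13837 genes were lower. The rise of *Dnajc28* in KO against KI (0.49) was lost without any 1 of 6 libraries.

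Genes that work with these chaperones were followed on lists made by function. Of the 16 HSP90 cochaperones, 5 were called higher and 3 lower in KO against WT, 6 higher and 1 lower in KI against WT, and 4 higher and 6 lower in KO against KI. The shares called, 50%, 43.8% and 62.5%, stood beside 55.1%, 42.3% and 54% of all genes. With library totals 9 were higher and 1 lower in KO against WT, and 11 and 1 in KI against WT. Of all genes, 5675 of 13359 and 4620 of 13534 were then higher, and 2124 and 1438 lower. Among the 3 falls in KO against WT, *Ahsa2* (-0.46) and *Cdc37l1* (-0.40) were both lost without KO 6 (-0.46 and -0.38) or WT 7 (-0.50 and -0.27), which left 1. With 1 library left out, *Ahsa2* kept its call only without KO 7 or WT 8. Without WT 8, *Cdc37l1* (-0.38) was called lower and *Cdc37* (0.38) higher in KI against WT, so that 7 were higher and 2 lower. Of all genes, 3601 of 13837 were higher and 3368 lower in that fit. *Ppp5c*, a phosphatase that docks on HSP90, had 115, 121, 115 and 123 CPM in the KO libraries, 34.7, 31.8 and 43.6 in the WT and 60.7, 58.5, 52.9 and 54.6 in the KI libraries. The 3 lines did not overlap, and KO against WT was at log2 fold change 1.67 ± 0.13, edgeR adjusted p = 3.45e-06. The gene lies on chromosome 7, with the median shift given above. The 3 HSP70 cofactors *St13*, *Sgta* and *Hikeshi* were called in no comparison, but without WT 8 *St13* and *Sgta* were called higher in both edited lines, at 0.42 and 0.48 for KO, and *Hikeshi* lower in KI (-0.39). In KO against KI *Hikeshi* was called higher without KI 6 (0.24) and *St13* lower without KO 8 or KI 8 (-0.23 and -0.22). With library totals *St13* and *Sgta* were called higher in KO against WT, *St13* in KI against WT and *Hikeshi* in KO against KI. The nascent chain factors *Naca* and *Btf3* were both called lower in KO against WT, at -0.60 and -0.48, where 28.4% of all genes were called lower. Neither was called in KI against WT, except *Naca* without WT 8 (-0.54). The KO call of *Naca* was lost without KO 8 (-0.55) or WT 5-6 (-0.28), and under library totals neither gene was called.

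Prefoldin, the complex of 6 subunits that hands actin and tubulin chains to the chaperonin, had 1 gene called higher and 4 lower in KO against WT cells, 1 higher and 2 lower in KI against WT and none higher and 4 lower in KO against KI, where 28.4%, 21% and 27% of all genes were called lower. With library totals 2 were lower in KO against WT and none in KI against WT, where 2124 of 13359 and 1438 of 13534 genes were lower. *Vbp1*, one of the 4, lost its KO call (-0.53) without WT 5-6 (-0.45) or WT 7 (-0.35), and *Pfdn4* was called lower without WT 8 in the KO (-0.72) and in the KI cells (-0.58). *Pfdn1* had 91.3, 78.4, 68.1 and 62.8 CPM in the KO libraries, 220.4, 216 and 135 in the WT and 121, 131, 113 and 163 in the KI libraries. All KO libraries lay below all others, at log2 fold change -1.36 ± 0.19, edgeR adjusted p = 0.00014 against WT. *Pfdn5* followed at 123 ± 18.7 CPM in the KO, 241 ± 83.0 in the WT and 163 ± 16.9 in the KI cells (-0.99 in KO against WT). *Pfdn6* was the subunit called higher, in KO (0.56) and in KI cells (0.59). All 3 prefoldin calls in KI against WT were lost without WT 7 or without KI 5, and without WT 7 they stood at -0.43 for *Pfdn1*, -0.61 for *Pfdn5* and 0.41 for *Pfdn6*. The phosducin-like chaperonin regulators *Pdcl*, *Pdcl3* and *Txndc9* were all called lower in KO against WT, where 28.4% of all genes were called lower. Under library totals *Pdcl3* was not called there (-0.11). *Pdcl*, which assembles G protein beta gamma dimers, fell in KI against WT (log2 fold change -1.29 ± 0.19, edgeR adjusted p = 0.000197), as did *Txndc9* (-0.74), and *Pdcl3* (-0.27) was called there without WT 8 (-0.41).

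Actins and tubulins are the chaperonin's main clients. Of 12 genes tested, 7 were called higher and 2 lower in KO against WT, with a median of 0.54, and 9 higher and none lower in KI against WT, with a median of 0.99. Of all genes 26.7% and 21.2% were called higher in these comparisons. Between KO and KI, 1 was higher in the KO cells and 8 lower, where 27% of all genes were called in each direction. With library totals 9 were higher and 1 lower in KO against WT, and all 12 higher in KI against WT. Of all genes, 5675 of 13359 and 4620 of 13534 were then higher, and 2124 and 1438 lower. *Tuba1a* had 294, 304, 249 and 279 CPM in the KO libraries, 279, 228 and 189 in the WT and 819, 883, 722 and 825 in the KI libraries. Every KI library lay far above every KO and WT library, at log2 fold change 1.81 ± 0.17, edgeR adjusted p = 7.72e-06 in KI against WT. *Actg1*, the cytoplasmic gamma actin, was also set apart in the KI cells, at 2354 ± 238 CPM against 1164 ± 138 in the WT and 1126 ± 103 in the KO cells. *Tubb6* and *Tuba1b* rose in KI against WT at 1.60 and 1.49. *Tubb4b* rose most in KO against WT (log2 fold change 1.49 ± 0.14, edgeR adjusted p = 8.25e-06), whereas *Tubb2b* was lower in KO than in both other lines, with 114, 93.4, 87.1 and 84.5 CPM in the KO libraries, 279, 201 and 173 in the WT and 268, 279.9, 249 and 281 in the KI libraries. The near-identical tubulin genes may share reads, and the counting of such reads is not given in the sources used here. *Tubb3*, the neuronal form, was at most 0.345 CPM in any library and was not tested.

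**Figure D4:**
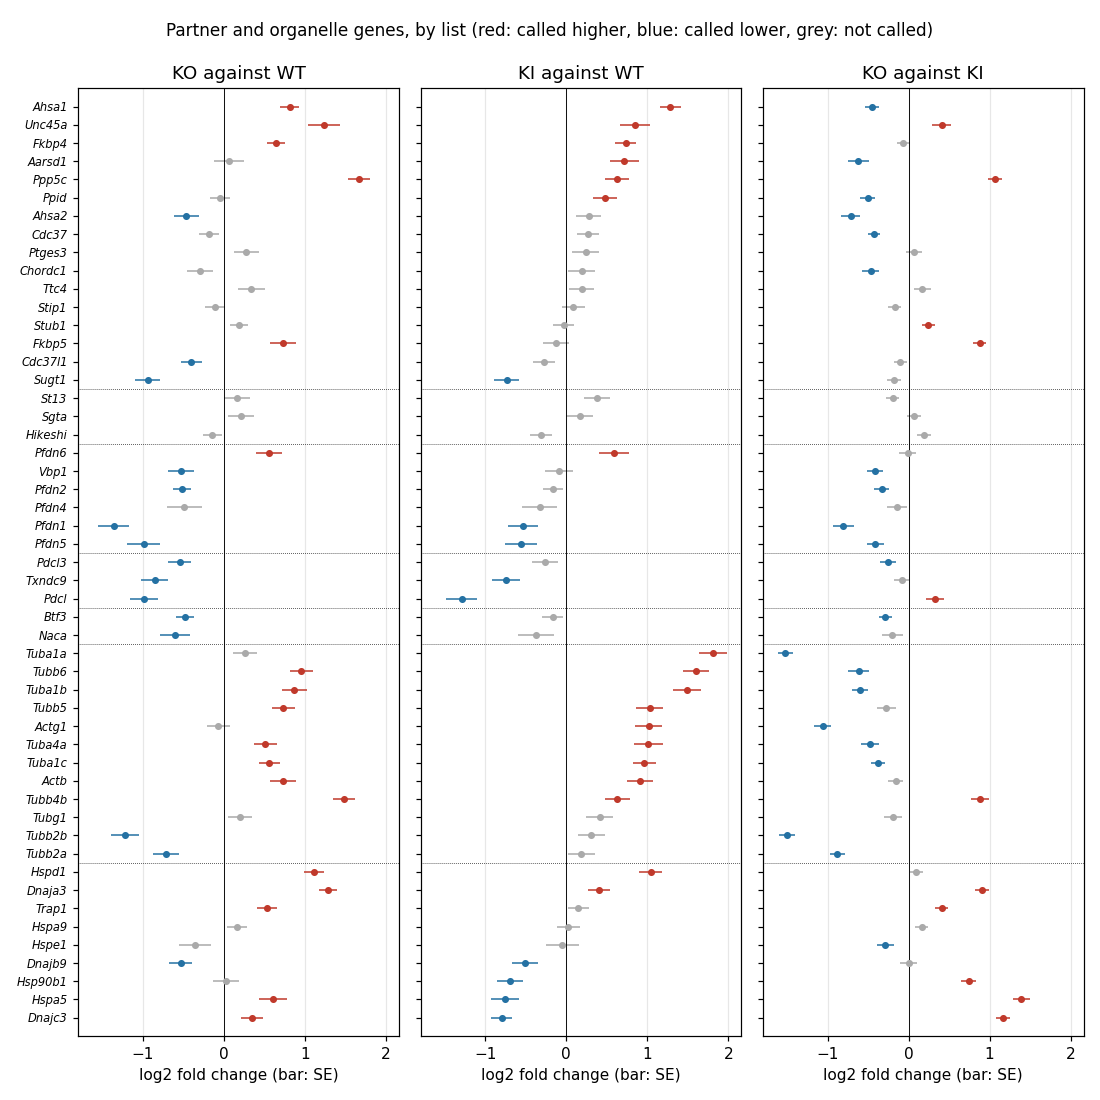
Log2 fold change (x axis, points with standard error bars) of the partner genes and organelle counterparts in KO against WT, KI against WT and KO against KI, by list from the HSP90 cochaperones at the top through HSP70 cofactors, prefoldin, chaperonin regulators, nascent chain factors and the actins and tubulins to the organelle genes. Red, blue and grey points were called higher, called lower and not called, and of the actins and tubulins none lies below 0 in KI against WT.

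The counterparts of these families in other compartments were given for comparison. Of 9 genes, 5 were called higher and 1 lower in KO against WT, 2 higher and 4 lower in KI against WT, and 5 higher and 1 lower in KO against KI. The shares of all genes were 26.7% higher and 28.4% lower, 21.2% and 21%, and 27% each way. With library totals 7 were higher and none lower in KO against WT, 3 and 3 in KI against WT, and 6 and none in KO against KI. Of all genes, 5675 of 13359, 4620 of 13534 and 3937 of 13269 were then higher, and 2124, 1438 and 3078 lower. *Hspa5* (BiP), the HSP70 of the ER, had 3059.5, 2678, 2648 and 2394 CPM in the KO libraries, 2023, 1789.9 and 1408 in the WT and 1062, 998, 899 and 1167 in the KI libraries. The lines were ordered KO, WT, KI without overlap, at log2 fold change 1.39 ± 0.11, edgeR adjusted p = 4.5e-08 in KO against KI. *Dnajc3* and the ER HSP90 gene *Hsp90b1* were also lower in KI than in WT cells, at -0.80 and -0.70. *Dnajc3* was called higher in KO against WT (0.35), a call that was lost without any library but WT 5-6. *Hspd1*, the mitochondrial chaperonin HSP60, rose in both edited lines, from 215 ± 20.4 CPM in the WT to 471 ± 13.0 in the KO and 443 ± 30.9 in the KI cells, while *Hspe1*, its lid HSP10, was not called against WT, although KO against WT was called lower without WT 8 (-0.56). It was the 1 gene lower in KO against KI (-0.29), and this call was lost without KO 7, KO 8, KI 6 or KI 8 (-0.23 to -0.25). *Dnaja3*, the mitochondrial J protein, rose in KO cells to 99.9 ± 4.44 CPM from 40.4 ± 2.25 (log2 fold change 1.28 ± 0.11, edgeR adjusted p = 7.44e-06). Its KI call (0.40) was lost without WT 5-6, WT 7, KI 5, KI 6 or KI 7, which left 1 of the 2 rises in KI against WT. *Hspa9*, the mitochondrial HSP70, was not called at 0.16 in KO against WT, but was called higher without WT 8 (0.28) and under library totals (0.56).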

How the data were processed

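PolyA RNA of 4 KO, 3 WT and 4 KI libraries of AML12 cells was sequenced by the authors, whose deposited table gives read counts per gene entry and library. The submitters' processing notes name HISAT2, TopHat2, Bowtie2 and StringTie, without versions; the genome build, the use of strand and the treatment of reads that match several genes are not given in the sources used here. The 11 FPKM columns, which have lost their decimal points, and the columns of the authors' own comparisons (fold changes and p-values) were not used. Of 26472 lines, 10 without counts were left out, and the counts of the others were summed by gene name to 24849 genes.

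Each pair of lines was fitted with edgeR 4.0.16 (R 4.3.3) on all genes, with filterByExpr, TMM scaling, a prior count of 2 and the robust quasi-likelihood test. Standard errors were taken as the log2 fold change divided by the square root of F. The procedure was tested on simulated counts. Alternatives used DESeq2 1.42.0, limma 3.58.1 on log2 CPM plus 1, other scalings and filters, and each library left out in turn.

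The members and lists were chosen with earlier results of these data known. Genes were named as follows: a fixed list of main chaperones, cofactors and regulators from the core genes, the 5 largest called rises and falls without overlap and at or above 1 on the log2 CPM scale in each comparison, the 3 largest among partners and organelle counterparts, and the names below the minimum. Not all of the 55 core genes are therefore named. Any other gene named, like the choice of promoters to print, was picked with the values known. Gene lengths and chromosomes came from GENCODE, matched by name.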

Additional observations from a re-analysis of the deposited data

Results flagged for a closer look

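Of 116 groups of 4 libraries looked at, 5 held 1 library far from the others by Dixon's test, where chance alone gives about 5.8. The share of the group's range taken by the gap was 0.8977 for *Cct6a* in KO 5, which had 266.8 CPM against 238 to 241 in the other KO libraries. For *Hspa13* in KI 8 it was 0.9733, with 63.6 CPM against 44.1 to 44.6, and for *Hspb11* in KI 8 it was 0.9108, with 22.1 CPM against 16.8 to 17.3. For *Hspa4* in KI 7 it was 0.9271, with 300.03 CPM against 328 to 330.3, and for *Dnajc3* in KI 6 it was 0.9304, with 122 CPM against 126.1 to 126.4.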

How the results depend on the processing

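With library totals 40 chaperone genes were called higher and 8 lower in KO against WT, and 32 higher and 6 lower in KI against WT. Of all genes, 5675 of 13359 and 4620 of 13534 were then higher, and 2124 and 1438 lower. With TMM scaling and a log2 fold change over 1 also required, 12 chaperone genes were higher and 5 lower in KO against WT. The counts were 3 and 3 in KI against WT, and 6 and 3 in KO against KI. Core genes alone gave 6 lower in KI against WT and 12 higher in KO against KI, and 5 and 12 with *Dnajc14*, *Dnajc16* and *Dnajc18* also left out, an alternative chosen after seeing the data. Leaving out 1 library gave 19 to 26 higher and 15 to 22 lower in KO against WT, 12 to 23 and 9 to 19 in KI against WT, and 17 to 20 and 14 to 18 in KO against KI. The 19 lower came without WT 8 and the 9 without WT 5-6 or KI 7. Over all genes, leaving out 1 library gave 3055 to 4341 higher and 3104 to 4108 lower in KO against WT. It gave 2140 to 3601 and 2136 to 3368 in KI against WT, and 3210 to 3549 and 3277 to 3709 in KO against KI. The cause was not tested.

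With library totals these log2 fold changes were among those that turned sign. In KO against WT they were *Bag1* 0.1156, *Dnajc7* 0.0015, *Hspa4* 0.1867, *Hspa4l* 0.4089, *Hspa8* 0.3777 and *Tcp1* 0.259. In KI against WT they were *Bag1* 0.2084, *Dnaja2* 0.2777, *Dnajb1* 0.2256, *Hsbp1* 0.2577, *Hsp90aa1* 0.2406, *Hspa1b* 0.1493 and *Hspb8* 0.1818. In KO against KI they were *Dnaja1* 0.0251, *Dnajb2* 0.0405 and *Hspa2* 0.0396. *Hspa4l* in KO against WT also turned with no filter (0.011) and with all 11 libraries in 1 fit (0.017). Of these only *Dnajc7* had been called, and *Hspa4l* and *Hspa8* in KO against WT became so under library totals. Outside this list, *Bag5* in KO against WT had been called lower (-0.37) and turned to 0.050 without a call. There *Dnajc14* and *Dnajc22* turned and became called (0.38 and 0.36).

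Among the genes named by the rule, library totals also ended the calls of *Cct5* (-0.03), *Dnaja2* (-0.045), *Dnajb1* (-0.1368), *Dnajb4* (-0.0757) and *Hspa2* (-0.5022) in KO against WT and of *Dnajb6* (-0.2066), *Dnajc7* (-0.1275) and *Hspa2* (-0.5413) in KI against WT. They added higher calls of *Cct2*, *Cct6a*, *Cct7*, *Cct8*, *Dnaja1* and *Hsp90ab1* in KO against WT (0.4501 to 0.7872) and of *Bag3*, *Cct5*, *Cct7*, *Cct8*, *Dnaja1*, *Hspa4*, *Hspa4l*, *Hspa8*, *Hspb6* and *Txndc5* in KI against WT (0.428 to 0.6255). DESeq2 added *Hspa4* and *Bag1* in KO against WT, *Cct4* in KI against WT and *Hspa8* in KO against KI. *Bag1* in KO against WT was also called with RLE size factors, limma and all 11 libraries in 1 fit, and *Cct6a* there with limma. *Cct4* in KI against WT was also called with all 11 libraries in 1 fit (-0.3598). *Hsf1* in KO against KI was not called with RLE size factors (edgeR adjusted p = 0.052), with no filter (0.0528) or with all 11 libraries in 1 fit (0.0841), and *Dnajb4* (0.0578) and *Dnajb6* (0.0507) there were not called in that last fit.

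Leaving out 1 library turned the sign of genes near 0, none of them called. The log2 fold change in KO against WT ran from -0.0932 to 0.182 for *Bag2*, -0.1088 to 0.2376 for *Dnaja1*, -0.0298 to 0.0403 for *Hspa4l*, -0.0775 to 0.0418 for *Hspa8* and -0.3386 to 0.1364 for *Tcp1*. In KI against WT it ran from -0.048 to 0.291 for *Cct5*, -0.0785 to 0.2749 for *Dnaja1*, -0.1623 to 0.025 for *Dnaja2*, -0.2822 to 0.026 for *Dnajb1*, -0.1527 to 0.0273 for *Hsbp1*, -0.3173 to 0.0256 for *Hsp90aa1* and -0.1406 to 0.3406 for *Tcp1*. In KO against KI it ran from -0.1074 to 0.0263 for *Dnaja1*, -0.084 to 0.0298 for *Dnajb2*, -0.0922 to 0.0607 for *Hspa2*, -0.0584 to 0.1364 for *Hspbp1* and -0.0411 to 0.0537 for *Hsph1*.

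The replicate numbers did not pair the libraries throughout, since same-numbered libraries correlated at 0.0714 and 0.503 in KO and WT, -0.198 and -0.383 in KI and WT, and -0.274 to 0.0491 in KO and KI, where not every library correlated best with its own number. Library WT 5-6, not counted as same-numbered, correlated at 0.439 with KO 5 and -0.107 with KO 6. With KI 5 and KI 6 it correlated at -0.0555 and 0.17. With a replicate block 26 chaperone genes were called higher and 22 lower in KO against WT, 15 and 11 in KI against WT, and 20 and 14 in KO against KI. In the comparisons with WT, libraries 5 and 6 of the edited line shared a block with WT 5-6. Over all genes the block gave 4060 of 13359 higher and 4123 lower in KO against WT. It gave 2523 of 13534 and 2368 in KI against WT, and 3263 of 13269 and 3190 in KO against KI. Among the genes named by the rule, the block ended the edgeR calls of *Cct6a* (adjusted p = 0.0621) and *Dnajb6* (0.0833) in KI against WT and of *Hsf1* (0.08) and *Dnajb4* (0.0896) in KO against KI, and *Hsp90ab1* (0.00718), *Bag1* (0.0144) and *Cct6a* (0.0369) became called in KO against WT. *Tcp1* in KI against WT turned to -0.0166 with the block.

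Low counts limit *Hspb1* in the KO libraries, *Hspa1a*, *Hspa1l* and *Hspa12a*.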

Other observations

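Of the 71 chaperone genes, 5 are spread over several numbered entries of the deposited table, with 4 entries each for *Hspa1a*, *Hspa1b*, *Hspa1l* and *Bag6*, and 2 for *Hspa4l*. The values above are sums over these entries. Some entries of a gene had nearly the same counts. In the KO libraries 2 entries of *Hspa1l* had 6, 9, 12 and 13 counts and 6, 9, 12 and 14. For *Hspa1b*, 2 entries had 734 and 773 in KO 5. Whether the same reads were counted in several entries is not given in the sources used here. The summed levels of these genes may therefore hold some reads more than once.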
